A study of Mus musculus with 9 samples.

Results

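Fully grown oocytes stop transcription and live on messenger RNAs that were made earlier and stored with short poly(A) tails. During meiotic maturation selected messages are given longer tails in the cytoplasm and are translated. The machinery for this includes proteins that bind and mask stored mRNA, proteins that read the cytoplasmic polyadenylation element (CPE), a short uridine-rich sequence in the 3' UTR, and proteins that bind the new tail. The genes described here encode 4 components of the tail-lengthening side (Cpeb1, Dazl, Cpsf4 and Pabpc1l) and 5 of the storage side (Ybx2, Lsm14b, Patl2, Zar1 and Zar1l). They were taken by name from a list of 10 gene names, of which 9 had a row among the 30153 genes of the deposited tables. Epab, the tenth name, has no row of its own and is listed by RefSeq (GRCm38.p6) as a synonym of Pabpc1l, so the list holds 9 separate genes.

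The RNA came from pools of ovulated metaphase II oocytes of 4-week-old Sycp3CreERT2/+; Rosa26nT-nG/+ females of mixed genetic background, superovulated with 5 IU of PMSG and, 48 h later, 5 IU of hCG, and collected 13 h after the hCG. All groups share this genotype and treatment. CreERT2 is a Cre recombinase that needs an oestrogen-receptor ligand to act, here expressed from an allele named for Sycp3, a gene of meiotic prophase, and nT-nG is a reporter that changes from nuclear tdTomato (RFP) to nuclear GFP once Cre has recombined it. Oocytes were picked by eye into GFP High (15 to 16 oocytes per pool), GFP Low (49 to 57) and RFP (87 to 100) groups, with 3 libraries in each. Nothing in the labels says which pools came from separate females, so p-values measure the spread between these libraries, part of which may be technical. Pool size differs between all groups, so its effect and that of the reporter class cannot be told apart. The labels name no ligand or time of induction.

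The 9 libraries held 19381677 to 27746256 counts. The eGFP reporter was counted 0 to 16 times in an RFP library, 282 to 662 times in a GFP Low library and 869 to 1081 times in a GFP High library. For tdTomato the counts were 46 to 94, 16 to 35 and 0 to 2 in the same order, so GFP Low libraries held both reporters. All 12 oocyte markers examined were detected in every library. Their summed level (CPM, counts scaled to library size with TMM factors over the 9 libraries) was 9565 to 10207 in the RFP libraries. It was 9852 to 10371 in GFP Low libraries and 10213 to 11417 in GFP High ones. GFP High lay above RFP only narrowly, at 10213 against 10207 for the nearest libraries. Of these markers 9 of 12 were higher in GFP High against RFP (median log2 fold change 0.16). At an unadjusted p under 0.05 in edgeR stood 4 of them, and 0 passed the adjusted threshold. Against GFP Low 11 of 12 were higher (median 0.12), with 3 and 0 at these limits. Of all genes tested 49.3% and 49.4% were higher in these comparisons, and 4.09% and 3.77% had an unadjusted p under 0.05. Against RFP, Bmp15 (-0.07), Kit (-0.03) and Padi6 (-0.01) were lower. Of 21 cumulus and granulosa markers, 2 to 15 were at 0 in a library, and their sum was 297 to 394 CPM in the RFP libraries, 314 to 328 CPM in GFP Low libraries and 286 to 409 CPM in GFP High ones, most of it from Serpine2, Nr5a2 and Cyp19a1. The other 18 markers, a subset chosen after the values were seen, summed to 4.01 to 67.7 CPM in RFP libraries, highest in RFP 2. In GFP Low libraries the sum was 2.38 to 47.8 CPM, highest in GFP Low 1. In GFP High libraries it was 3.93 to 45.8 CPM, highest in GFP High 1. The part of these markers in the results below was not tested.

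The libraries were made from RNA caught on oligo-dT beads, so what was counted is mRNA that carries a tail. Tail length was not measured, so the amount of an mRNA and the length of its tail cannot be told apart in the levels given here. The 3' ends of the genes are where the tail is added. The 3' UTR of the principal GENCODE transcript was therefore searched, in its last 100 bases and on the transcript strand only, for the CPE letters TTTTAT or TTTTAAT and for the poly(A) signal letters AATAAA or ATTAAA. Of 8 genes whose 3' UTR is at least that long, 6 held a poly(A) signal, 5 of them AATAAA, starting 20 to 25 bases before the transcript end. Only the Ybx2 window among these 8 held CPE letters, which 20.3% of 10519 expressed protein-coding genes with such a window hold. A poly(A) signal was found in 81.4% of those 10519 genes, and both kinds of letters in 17.0%. The windows of Ybx2 and Cpsf4 held no poly(A) signal letters, so no window of the 8 held both kinds. Beyond the principal transcripts, 1 of 3 annotated Dazl transcripts with such a window held CPE letters. The annotated 3' UTR of Zar1l has 14 bases and was not searched. These matches describe letters in annotated ends, and the ends used in these oocytes were not measured. The windows below show the CPE letters of Ybx2, and the poly(A) signals of Zar1, the member with the smallest p-value, and of Pabpc1l, the one gene with the ATTAAA form, with the matched letters in capitals (GRCm38, 30 bases each, 5' to 3' on the transcript strand).
Ybx2, chr11:69941536-69941565, plus strand: tgaagccaTTTTATgaactgtcatgtgcca
Zar1, chr5:72577117-72577146, minus strand: ataaagcctgtgAATAAAaggtattgcaaa
Pabpc1l, chr2:164050505-164050534, plus strand: tttgctttatatATTAAAaaatgctgcaaa

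None of the 9 genes passed an adjusted p of 0.05 in any of the 3 comparisons between groups. The genome-wide share past that threshold was 0.0135% of 14829 genes in GFP High against RFP, 0.0197% of 15199 in GFP Low against RFP and 0% of 14785 in GFP High against GFP Low, so calls were rare for all genes. All 9 genes passed the low-count filter in each comparison. In each gene the highest of the 9 libraries was less than 1.6 times the lowest. Of the 27 fitted fold changes, 0 had a 95% interval that reached 1.5-fold in either direction. The shares of all genes inside these limits are not given here, so neither limit sets the 9 genes apart from other genes. These intervals are not adjusted for the number of genes. Their outer bounds were 0.685 (Cpsf4) and 1.48 (Zar1l), both in GFP High against RFP. Differences inside these intervals remain possible with 3 libraries per group. Levels are scaled to library size and an amount per oocyte was not measured, so a change in total mRNA per oocyte would not be seen. Each library is a pool, so a difference in a share of its oocytes and a smaller one in all of them cannot be told apart.

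**Figure D1:**
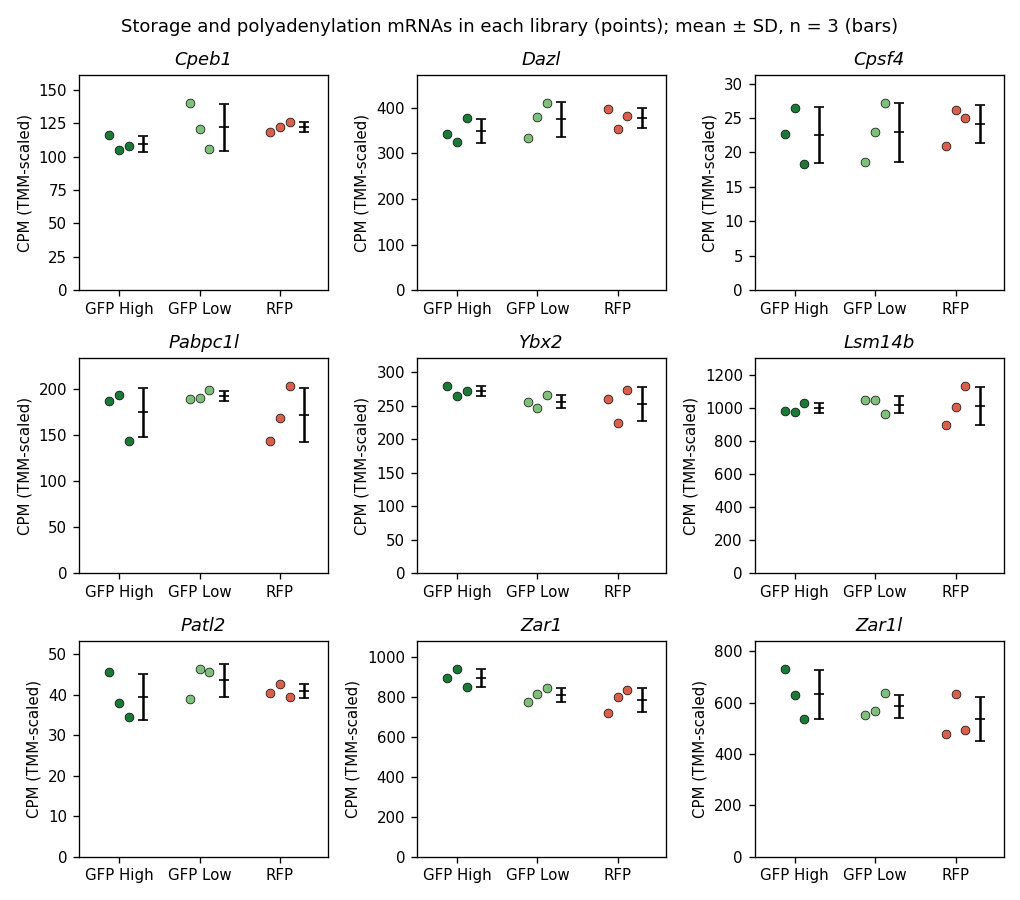
Level of each of the 9 genes in TMM-scaled CPM (vertical axis, from 0) in every library, by group (horizontal axis). Points are libraries and bars are mean ± SD of 3 libraries. The groups overlap for most genes, and Zar1 in GFP High (847 to 936) sits above GFP Low (774 to 842) and RFP (717 to 835).

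Among the readers of the CPE and of the poly(A) signal, Cpeb1 (ENSMUSG00000025586, chromosome 7, 81347026 to 81455465, minus strand) encodes the protein that binds the CPE, holds stored messages silent and later promotes their tail extension. In GFP High 1, 2 and 3 it stood at 116, 105 and 108 CPM. In GFP Low 1, 2 and 3 it was at 140.3, 120.5 and 105 CPM, and in RFP 1, 2 and 3 at 119, 122 and 126. Every GFP High library was below every RFP library, but GFP Low 3 was as low as GFP High. Cpeb1 was 1 of 2 genes whose GFP High and RFP libraries did not overlap, as was true of 11.8% of all genes tested, and of 6.8% in the direction of Cpeb1, lower in GFP High. Its log2 fold change in GFP High against RFP was -0.14 (SE 0.11, 95% interval -0.38 to 0.09, edgeR adjusted p = 0.997), and against GFP Low it was -0.14 (SE 0.12, edgeR adjusted p = 0.998). GFP Low differed from RFP by 0.00 on the same scale (SE 0.11, edgeR adjusted p = 1).

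Dazl (ENSMUSG00000010592, chromosome 17, 50279395 to 50293636, minus strand), a germ-cell RNA-binding protein that promotes translation of its targets, was measured in GFP High 1, 2 and 3 at 343, 325 and 378 CPM. Its levels in GFP Low 1, 2 and 3 were 333.2, 379 and 411 CPM, and RFP 1, 2 and 3 had 398, 354 and 382 CPM. The 3 ranges overlapped. GFP High against RFP gave a log2 fold change of -0.10 (SE 0.09, 95% interval -0.31 to 0.11) and GFP Low against RFP gave -0.01 (SE 0.09, interval -0.20 to 0.18), each with an edgeR adjusted p above 0.99.

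Cpsf4 (ENSMUSG00000029625, chromosome 5, 145167213 to 145182041, plus strand) encodes the zinc-finger subunit of the cleavage and polyadenylation specificity factor, which recognises the poly(A) signal. It was the least abundant of the 9 genes, with 361 to 753 counts, and the one with the widest intervals. GFP High 1, 2 and 3 had 22.7, 26.5 and 18.3 CPM of it, and GFP Low 1, 2 and 3 had 18.5, 23.0 and 27.2 CPM. In RFP 1, 2 and 3 the levels were 20.98, 26.2 and 25.0 CPM, inside the ranges of both other groups. The log2 fold change in GFP High against RFP was -0.08, with a 95% interval from -0.55 to 0.38.

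Pabpc1l (ENSMUSG00000054582, chromosome 2, 164025450 to 164050538, plus strand), also called Epab, encodes the cytoplasmic poly(A)-binding protein typical of oocytes and early embryos. GFP High 1, 2 and 3 had 187, 193 and 144 CPM. GFP Low 1, 2 and 3 were close together at 189, 189.9 and 199 CPM, while RFP 1, 2 and 3 spread over 144, 168 and 203 CPM. GFP High 3 and RFP 1 were thus the low libraries, in different groups, and the coefficient of variation was 2.87% among the GFP Low libraries and 17.3% among the RFP libraries. In GFP Low against RFP the log2 fold change was 0.17 (SE 0.11, 95% interval -0.08 to 0.41, edgeR adjusted p = 1), and against RFP the GFP High value was 0.04 (SE 0.15, interval -0.30 to 0.38).

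On the storage side, Ybx2 (ENSMUSG00000018554, chromosome 11, 69935796 to 69941605, plus strand), also known as Msy2, encodes a Y-box protein that coats and stabilises maternal mRNA. The level was 279, 264 and 272 CPM for GFP High 1, 2 and 3 and 255, 246 and 266 CPM for GFP Low 1, 2 and 3. RFP 1 and 3, at 259 and 272 CPM, lay within or between these ranges and RFP 2, at 224 CPM, was the lowest library. Against RFP, GFP High had a log2 fold change of 0.12 (SE 0.10, 95% interval -0.10 to 0.34) and GFP Low one of 0.03 (SE 0.09, interval -0.16 to 0.22).

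Lsm14b (ENSMUSG00000039108, chromosome 2, 180024987 to 180035465, plus strand), an LSM-domain protein of oocyte mRNA storage particles, had the highest count level of the 9 genes. GFP High 1, 2 and 3 held 983, 978 and 1032 CPM, GFP Low 1, 2 and 3 held 1047, 1050.4 and 961 CPM, and RFP 1, 2 and 3 held 898, 1004 and 1132 CPM. Both the lowest and the highest library were RFP libraries. The 95% interval of its log2 fold change in GFP High against GFP Low ran from -0.17 to 0.12, the narrowest of the 27 intervals.

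Patl2 (ENSMUSG00000027233, chromosome 2, 122120108 to 122186189, minus strand), an oocyte member of the PAT1 family of mRNA-binding proteins, was at 45.7, 37.9 and 34.5 CPM in GFP High 1, 2 and 3. The GFP Low 1, 2 and 3 levels were 38.9, 46.2 and 45.5 CPM, and those of RFP 1, 2 and 3 were 40.4, 42.7 and 39.5 CPM. The RFP libraries lay inside the range of each GFP group. Its log2 fold change was -0.04 (SE 0.16) in GFP High against RFP, 0.10 (SE 0.12) in GFP Low against RFP and -0.14 (SE 0.16) in GFP High against GFP Low.

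Zar1 (ENSMUSG00000063935, chromosome 5, 72576806 to 72581254, minus strand), zygote arrest protein, binds maternal mRNAs and is needed after fertilisation. GFP High 1, 2 and 3 had 892, 936 and 847 CPM, against 774, 812 and 842 CPM for GFP Low 1, 2 and 3 and 717, 800.1 and 835 CPM for RFP 1, 2 and 3. All GFP High libraries were above all others, the nearest being GFP High 3 and GFP Low 3 (847 and 842 CPM). It was the only one of the 9 genes higher without overlap in GFP High against RFP, where 5.04% of all genes tested were, and also in the comparison with GFP Low, where 4.79% were. The log2 fold change was 0.20 against RFP (SE 0.08, 95% interval 0.01 to 0.39, edgeR unadjusted p = 0.0389, adjusted p = 0.997) and 0.15 against GFP Low (SE 0.07, interval -0.0012 to 0.30, adjusted p = 0.998). At the unadjusted p under 0.05 that Zar1 reached against RFP stood 4.09% of all genes tested, and the authors' deposited table gives Zar1 an adjusted p of 0.573 there. GFP Low and RFP overlapped, at a log2 fold change of 0.05 (SE 0.08). Of the 12 oocyte markers, 9 were higher in GFP High against RFP (median 0.16) and 11 against GFP Low (median 0.12). Of all genes tested 49.3% and 49.4% were higher there. The part of the markers in the values of Zar1 was not tested.

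Zar1l (ENSMUSG00000056586, chromosome 5, 150507055 to 150518164, minus strand), which encodes the related ZAR1-like protein, reached 731, 631 and 538 CPM in GFP High 1, 2 and 3. For GFP Low 1, 2 and 3 the levels were 554, 569 and 637 CPM, and for RFP 1, 2 and 3 they were 478, 634 and 493 CPM. RFP 2 was as high as GFP High 2, and GFP High 3 was lower than all 3 GFP Low libraries. The largest of the 27 fold changes belonged to this gene, with a log2 value of 0.26 in GFP High against RFP (SE 0.14, 95% interval -0.05 to 0.57, edgeR unadjusted p = 0.0914, adjusted p = 0.997). Without GFP High 1 this value was 0.14 and without RFP 2 it was 0.39. In their groups, these libraries had the highest sums of the 18 cumulus and granulosa markers, whose part was not tested. In GFP Low against RFP the log2 fold change of Zar1l was 0.14 (SE 0.11).

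**Figure D2:**
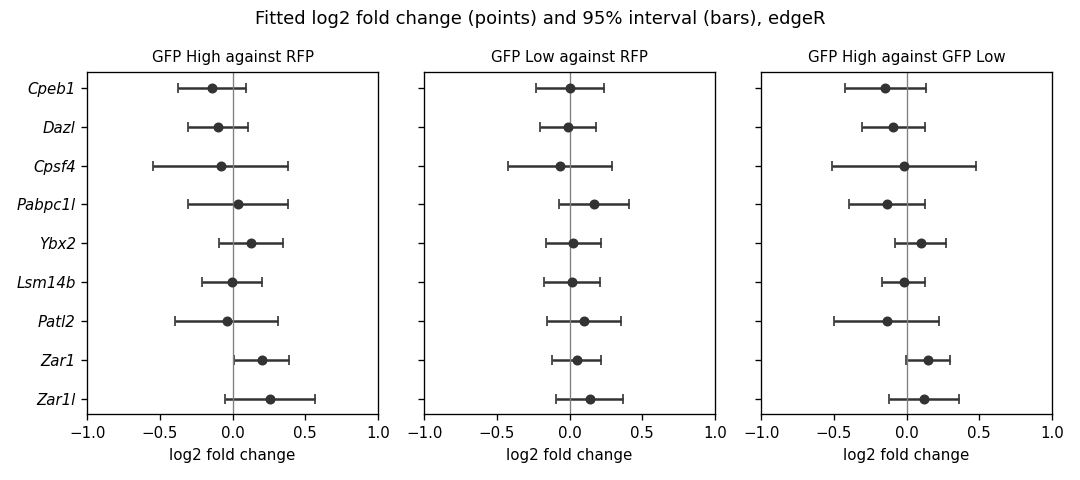
Log2 fold change (points, horizontal axis) and 95% interval (bars) of the 9 genes in the 3 comparisons between groups, from edgeR fits on 6 libraries each. The interval of Zar1 in GFP High against RFP (0.01 to 0.39) is the only one of 27 that excludes 0. The comparisons share libraries, so their panels are not independent.

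Seen together, the 9 genes had no common direction. In GFP High against RFP 4 were higher and 5 lower, with a median log2 fold change of -0.00, against -0.01 for all genes tested, of which 49.3% were higher. In GFP Low against RFP 7 were higher and 2 lower (median 0.03, all genes -0.00, 48.9% higher), and between GFP High and GFP Low 3 were higher and 6 lower (median -0.02, all genes -0.00, 49.4% higher). Libraries that did not overlap between groups were found for 2 of 9 genes, 0 of 9 and 1 of 9 in these comparisons, where the shares of all genes were 11.8%, 7.68% and 11.5%. By direction, these shares were 5.04% higher and 6.8% lower in GFP High against RFP, 3.62% and 4.07% in GFP Low against RFP, and 4.79% and 6.7% for GFP High against GFP Low. The 9 genes together took 0.332% ± 0.0231 of all counts of an RFP library, 0.342% ± 0.00621 of a GFP Low library and 0.350% ± 0.0128 of a GFP High library (SD, n = 3). Across the 9 libraries, the Pearson correlation of log2 CPM between pairs of the genes ran from -0.57 (Cpeb1 with Zar1) to 0.64 (Zar1 with Zar1l) over 36 pairs, with a median of 0.06. These pairs share libraries and scaling, and the values are descriptive.

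Replicates of these genes spread less than those of other genes in GFP High, and about as much as those of other genes in GFP Low and RFP, as a description without a test. The median coefficient of variation between replicates was 7.63% for the 9 genes in GFP High, against 15.3% for 7709 genes at 10 CPM or more. In GFP Low it was 7.57% against 8.40%, and in RFP 9.89% against 9.62%. Their own spread in GFP High ran from 2.69% (Ybx2) to 18.2% (Cpsf4). The 7709 genes were not matched in level to the 9, whose means ran from 23.2 CPM (Cpsf4) to 1010 CPM (Lsm14b). The part of level in the GFP High difference was not tested.

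Among 7708 other genes at 10 CPM or more, the gene whose log2 CPM pattern over the 9 libraries was most like that of Zar1 was Supt20 (Pearson r = 0.96, Spearman rho = 0.95). For Dazl it was Senp8 (0.96, 0.93), for Zar1l Gm10177 (0.95, 0.93), for Patl2 Rabgap1l (0.95, 0.97) and for Pabpc1l Dnajc7 (0.94, 0.82). Sept14 was most like Cpeb1 (0.93, 0.92), Lsp1 most like Cpsf4 (0.92, 0.70), Agpat1 most like Ybx2 (0.91, 0.78) and Tbc1d20 most like Lsm14b (0.88, 0.93). These are the highest of 7708 values each over 9 points, and none of these genes was on a list used here.

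Levels can be set side by side between genes only per length. In the authors' FPKM, which divide fragment counts by gene length and library size, averaged over 9 libraries, Zar1l came first at 648 ± 92.9, followed by Lsm14b at 346 ± 22.1, Zar1 at 237 ± 19.9, Ybx2 at 136 ± 9.16 and Dazl at 95.1 ± 7.04 (SD over 9 libraries). Pabpc1l had 65.4 ± 8.15 FPKM, Cpeb1 27.9 ± 2.603, Patl2 16.8 ± 1.62 and Cpsf4 6.37 ± 0.917. Zar1l was the 41st and Lsm14b the 85th most abundant gene of all on this scale, and Cpsf4 the 5546th. On this scale no neighbours in the order overlapped in their ranges over the 9 libraries.

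That order depends on the length that is used. The deposited length of Zar1 is 3465 bases, 2.42 times its principal GENCODE transcript of 1429 bases, and that of Cpsf4 is 3598 bases, 2.59 times its principal transcript of 1387 bases. For Zar1l both lengths are 895 bases, with an annotated 3' UTR of only 14 bases. The second length therefore does not test the level of Zar1l, and a longer 3' end in these oocytes was not looked for. Per kilobase of principal transcript, a length chosen after seeing the data, Zar1l had 654 ± 89.8 CPM and Zar1 580 ± 44.8 CPM, with overlapping ranges, and Lsm14b came after both at 398 ± 26.2 CPM. Ybx2 (155 ± 9.92) and Dazl (123 ± 9.92) overlapped as well, and so did Patl2 (16.9 ± 1.67) and Cpsf4 (16.7 ± 2.42). Which transcripts the reads came from was not measured, so neither length is known to be the right one. Comparisons of 1 gene between groups do not involve the length.

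**Figure D3:**
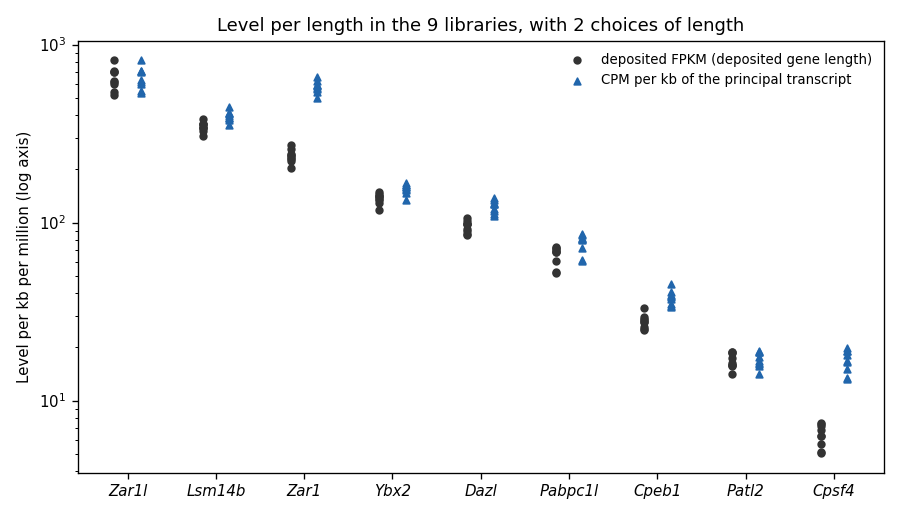
Level per length of the 9 genes on a log axis, in each of the 9 libraries, as deposited FPKM (circles) and as CPM per kilobase of the principal transcript (triangles). Zar1 and Cpsf4 move most between the scales, from 237 to 580 and from 6.37 to 16.7 on average.

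Several of these genes are the oocyte forms of families whose other members act in many cell types, and the ratio of levels per length was taken within each library. Patl2 was above Patl1 in 9 of 9 libraries, with a median ratio of 4.44 (range 3.14 to 7.44) by deposited length and 4.44 by principal transcript. Lsm14b was above Lsm14a in 9 of 9 libraries, 5.02-fold by deposited length and 2.75-fold by principal transcript. Pabpc1l was above Pabpc1, the general poly(A)-binding protein, by 34.7-fold and 17.3-fold. It was not separated from Pabpc4, at ratios of 1.09 and 0.944. Cpeb1 was above Cpeb3 in 9 of 9 libraries (2.43-fold and 2.61-fold), and its ratio to Cpeb4 was 2.21 by deposited length and 1.08 by principal transcript. Cpeb2 had only 7 to 87 counts in a library. Ybx2 was below Ybx1, the Y-box protein of most tissues, in 9 of 9 libraries on either length (0.382 and 0.277 of its level). Ybx1 has processed copies in the genome that could share its reads, so its level is uncertain. The ratio of Ybx2 to Ybx3 was 1.14 by deposited length and 0.776 by principal transcript, so its direction turns on the length.

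**Figure D4:**
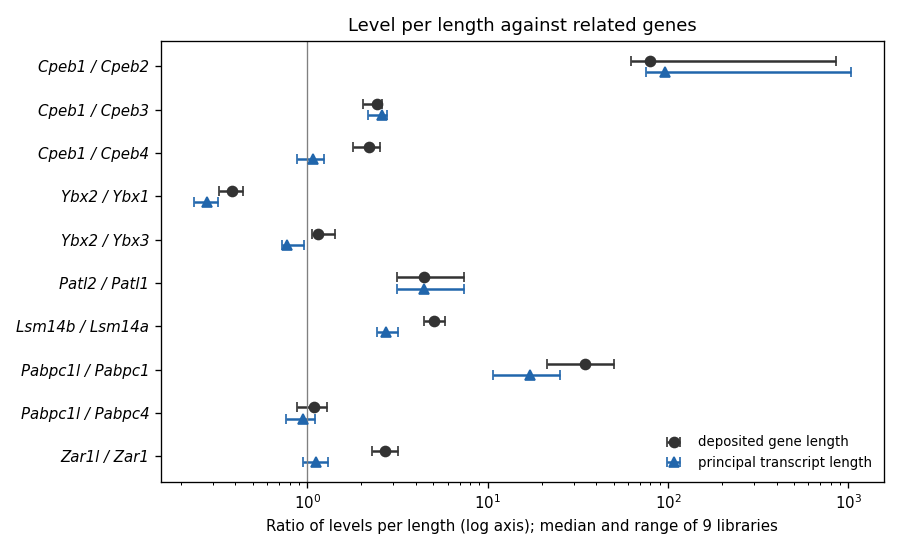
Ratio of the level per length of each gene to that of a related gene within a library, on a log axis, as median (symbol) and range (bar) of 9 libraries, for the deposited gene length (circles) and the principal transcript length (triangles). Patl2, Lsm14b and Pabpc1l lie above Patl1, Lsm14a and Pabpc1 for either length, and Ybx2 lies below Ybx1.

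By group, the ratio of Zar1l to Zar1 by deposited length was 2.64 ± 0.393 for RFP, 2.81 ± 0.113 for GFP Low and 2.75 ± 0.376 for GFP High (SD, n = 3). Lsm14b over Lsm14a was 4.97 ± 0.719, 4.99 ± 0.231 and 5.24 ± 0.595, and Ybx2 over Ybx1 was 0.369 ± 0.0646, 0.385 ± 0.0363 and 0.379 ± 0.0215, in the same order. In these 3 ratios the group ranges overlapped, and with 3 libraries against 3 an exact test could not go below p = 0.1. The ratio of Cpsf4 to Cpsf1, the scaffold subunit of the same complex, was 4.95 ± 0.456 for RFP, 3.82 ± 0.490 for GFP Low and 3.23 ± 1.12 for GFP High. The RFP range (4.44 to 5.31) lay above that of GFP Low (3.35 to 4.32) and overlapped with that of GFP High (2.53 to 4.53), and Cpsf1 had as few as 163 counts. Over the 13 ratios and 3 pairs of groups, this was 1 of 39 comparisons whose ranges did not overlap, the others overlapping. The ratios of Cpsf4 to Cpsf2 (0.331 to 0.393 for RFP, 0.280 to 0.407 for GFP Low) and to Cpsf3 (0.239 to 0.281 and 0.205 to 0.248) overlapped. Against RFP, the log2 fold change of Cpsf1 itself was 0.58 in GFP High (SE 0.30) and 0.30 in GFP Low (SE 0.22). For Cpsf4 these values were -0.08 (SE 0.21) and -0.07 (SE 0.16), so the ratio differed mainly through its denominator.

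The wider machinery of storage and tail control was followed with a list of 33 genes (other CPEB proteins, poly(A) polymerases, CPSF subunits, cap-binding and masking proteins, PUM and MSI repressors, poly(A)-binding proteins, the deadenylase Parn and IGF2BP proteins). All 33 were tested in each comparison and 0 passed the adjusted threshold in edgeR. At an unadjusted p under 0.05 stood 0, 0 and 3 of them in GFP High against RFP, GFP Low against RFP and GFP High against GFP Low, where all genes gave 4.09%, 2.62% and 3.77%. In the same order 11, 18 and 12 of the 33 were higher, against 49.3%, 48.9% and 49.4% of all genes. The median log2 fold changes were -0.01, -0.00 and -0.00 for all genes and -0.08, 0.01 and -0.05 for the list. Named after their levels were seen, the most abundant by deposited length were Ybx1 (363 FPKM) and Eif4e1b, an oocyte cap-binding protein (280 FPKM). Next came Fip1l1, a polyadenylation factor, at 232 FPKM, and Pabpn1l, an oocyte relative of the nuclear poly(A)-binding protein, at 204 FPKM. In counts Fip1l1 was the highest of the list, at a mean of 3068 CPM against 929 CPM for Ybx1. Principal transcript lengths were not applied to the list as a whole, so this order and the levels below may change with the length. Eif4enif1 (4E-T), which holds eIF4E in repressed particles, had 160.2 FPKM, while the helicase Ddx6 had 3.28 FPKM and the cytoplasmic poly(A) polymerase Tent2, listed as Papd4, had 4.47 FPKM.

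Among genes of this list at a mean of 10 CPM or more, Pabpn1l and Cpsf3 had the largest positive fold changes in GFP High against RFP and Pabpc1 and Igf2bp3 the largest negative ones. Below that limit, Cpsf1 had a larger value of 0.58 (SE 0.30, edgeR adjusted p = 0.997), and Msi1, with 0 to 37 counts, gave no usable estimate (SE 1.77). Pabpn1l stood at 259, 289 and 272 CPM in GFP High 1, 2 and 3, at 238, 218 and 232 CPM in GFP Low 1, 2 and 3, and at 263, 231 and 209 CPM in RFP 1, 2 and 3. GFP High was above GFP Low without overlap (log2 fold change 0.26, SE 0.08, edgeR unadjusted p = 0.0110, adjusted p = 0.998). Of the 33 listed genes, 2 were higher and 2 lower without overlap between these groups, against 4.79% and 6.7% of all genes. For Pabpn1l, GFP High overlapped with RFP (log2 fold change 0.24, SE 0.11, edgeR adjusted p = 0.997). Igf2bp3 was at 67.9, 71.8 and 87.0 CPM in GFP High 1, 2 and 3, and every other library was between 86.1 and 103 CPM, at log2 fold changes of -0.30 against RFP and -0.33 against GFP Low. Cpsf3, the endonuclease that cuts the pre-mRNA, was at 0.15 and Pabpc1 at -0.36 against RFP, with SEs of 0.17 and 0.25.

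The messages on which this machinery acts were followed with 15 mRNAs taken as controlled through tail length in germ cells, among them Mos, Ccnb1, Plat, Tpx2 and Btg4. All were tested, 0 passed the adjusted threshold in edgeR, and 1, 0 and 3 had an unadjusted p under 0.05 in the comparisons in the order above, where all genes gave 4.09%, 2.62% and 3.77%. Of the 15, 5, 3 and 8 were higher, with medians of -0.02, -0.03 and 0.01, and 49.3%, 48.9% and 49.4% of all genes were higher. Mos, the kinase that holds the egg at metaphase II, was at 85.0, 90.6 and 76.0 CPM in GFP High 1, 2 and 3. It was at 65.1, 61.6 and 62.1 CPM for GFP Low 1, 2 and 3, and at 70.7, 73.6 and 66.1 CPM in RFP 1, 2 and 3. Its 3 groups did not overlap with each other, GFP High being the highest and GFP Low the lowest, where 5.04% of all genes were higher without overlap in GFP High against RFP, 4.79% against GFP Low, and 4.07% lower in GFP Low against RFP. The log2 fold change of Mos was 0.42 in GFP High against GFP Low (SE 0.12, edgeR unadjusted p = 0.00515, adjusted p = 0.998) and 0.27 in GFP High against RFP (SE 0.12, adjusted p = 0.997). Oosp1, an oocyte-secreted protein, had 1363, 1573 and 1221 CPM in GFP High 1, 2 and 3 and 872 to 1244 CPM in the other 6 libraries, at 0.38 against GFP Low (SE 0.09, unadjusted p = 0.00164, adjusted p = 0.998) and 0.35 against RFP (SE 0.14). Sycp1 and Sycp3, of the synaptonemal complex of meiotic prophase, had the largest negative values against RFP, -0.34 (SE 0.27) and -0.30 (SE 0.31), at mean levels of 15.8 and 13.7 CPM. Mos and Oosp1 are also on the list of oocyte markers, so the lists are not independent and their own levels are part of the marker sum. For all 15 mRNAs, amount and tail length cannot be told apart in these levels.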

How the data were processed

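Poly-A RNA-seq of 9 oocyte pools was deposited as 3 tables, 1 per pair of groups. The submitters' processing notes name fastp, HISAT2 2.0.5, featureCounts 1.5.0-p3, DESeq2 1.20.0 and mm10, with no settings, and strandedness is not given in the sources used here. The deposited tables hold raw counts per gene, which were the input to all tests. They also hold a normalised signal per library (the authors' counts divided by size factors), which was not used. FPKM values by the authors served for levels between genes. The authors' log2 fold changes and their p-values are quoted only by name.

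Tables were joined by gene identifier into 30153 genes by 9 libraries. For 178 genes missing from a table, counts were set to 0. Each pair of groups was tested on its 6 libraries with edgeR 4.0.16 (R 4.3.3): filterByExpr, TMM, quasi-likelihood test, no covariate, Benjamini-Hochberg adjustment over all genes tested. Standard errors come from the F statistic and intervals from its degrees of freedom. Alternatives used DESeq2 1.42.0 and limma 3.58.1. The fits were also run on simulated counts, with a common spread for all genes and changes larger than any fitted for the 9 genes. Their outcome is not given here, and they do not show how well smaller changes are found. Coordinates of the 9 genes were identical in GENCODE M21 (GRCm38), and none shares exonic bases with another gene. Reads carry no molecular identifiers. All 9 genes are named. Of the other lists, the 2 genes with the largest positive and the 2 with the largest negative fold change in GFP High against RFP at 10 CPM or more are named; abundant genes, Tent2, Ddx6 and relatives are given for their levels, some of them chosen after those were seen. The members and lists were chosen with earlier results of these data known. The 3' end sequences of 3 genes are printed, and those of the other 6 are not reported here.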

Additional observations from a re-analysis of the deposited data

How the results depend on the processing

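None of the 9 genes passed the threshold in any of 13 alternative settings per comparison (smallest adjusted p of a member 0.415), and no log2 fold change of theirs moved by more than 0.144. Over all genes, the number past the threshold in GFP High against RFP, GFP Low against RFP and GFP High against GFP Low was 2, 3 and 0. It became 16, 34 and 16 with no filter on low counts, where more genes are tested, 12, 10 and 4 with DESeq2 and 1, 1 and 0 with limma-voom. With the replicate number as a block it became 4, 3 and 0. Same-numbered libraries did not deviate together (correlations -0.0651 to 0.00932, -0.113 to 0.116 and -0.0576 to 0.0954), so the numbers were not taken as pairs. Leaving out 1 library gave 0 to 2 genes in GFP High against RFP (0 when RFP 2, RFP 3, GFP High 1 or GFP High 3 was left out), 2 to 3 in GFP Low against RFP and 0 to 1 in GFP High against GFP Low (1 without GFP High 3).
Of 351 alternative fold changes, 31 changed sign, 22 of them by leaving out a library. Lsm14b in GFP High against RFP (log2 -0.00387) became 0.0069 with DESeq2 size factors, 0.00733 with DESeq2, 0.000108 with limma-voom and 0.00206 with the replicate block. Cpeb1 in GFP Low against RFP (0.00127) became -0.00587 with no filter, -0.0183 with limma-voom, -0.00016 with all 9 libraries, -0.00794 with the replicate block and -0.00351 with bias-adjusted deviances, a setting added once the data had been seen. Leaving out 1 library gave, in GFP High against RFP, -0.168 to 0.0428 for Patl2, -0.0924 to 0.0792 for Lsm14b, -0.219 to 0.0412 for Cpsf4 and -0.084 to 0.17 for Pabpc1l. In GFP Low against RFP it gave -0.116 to 0.0948 for Cpeb1, -0.084 to 0.0618 for Dazl, -0.0467 to 0.086 for Ybx2, -0.0688 to 0.103 for Lsm14b, -0.0155 to 0.0972 for Zar1 and -0.21 to 0.0586 for Cpsf4. In GFP High against GFP Low it gave -0.00367 to 0.217 for Zar1l and -0.154 to 0.119 for Cpsf4. The other 15 fold changes kept their sign, among them Zar1 in GFP High against RFP (0.131 to 0.243). The principal transcript length turned the ratios of Ybx2 to Ybx3 (0.776) and of Pabpc1l to Pabpc4 (0.944), by the length itself. Apart from the settings named by construction, the cause was not tested. With 361 to 753 counts, Cpsf4 had the fewest counts and the widest intervals of the 9 genes.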
